A study of Mus musculus with 3 samples.

Results

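The genes described here are 9 ligands and receptors of the vascular endothelial growth factor (VEGF) family: the ligands Vegfa, Vegfb, Vegfc and Pgf, the receptors Flt1 (VEGFR1), Kdr (VEGFR2) and Flt4 (VEGFR3), and the co-receptors Nrp1 and Nrp2. They were taken by symbol from the 32285 genes of the count tables, and all 9 were found. Single-cell RNA was measured in lung endothelial cells (ECs) of wild-type C57BL/6 mice, in 3 libraries with 1 library per group. The control received PBS through the tail vein and was taken after 6 h, and the other libraries came from mice injected with 200000 B16-F10 cells, a mouse melanoma line that colonizes the lung, in 100 µl of PBS and taken after 6 h or 30 h. Lungs were digested with collagenase for 1 h at 37 °C, and Pecam1+ Ptprc- cells were sorted. By the study's methods, dye-labelled melanoma cells were sorted from the digested lungs as well, and they were included in the 6 h melanoma library. Cells of 2 mice per treatment were pooled according to the labels. The study's methods give a larger pool for the experiment that held a 30 h library, and this difference is not settled. The 30 h library had no PBS control of its own time, so time after injection and melanoma cannot be told apart in it, and both melanoma libraries were set against the same 6 h control.

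The VEGF ligands are secreted proteins that bind receptor tyrosine kinases on ECs. Vegfa signals mainly through Kdr, which drives EC survival, permeability and sprouting, whereas Flt1 binds Vegfa, Vegfb and Pgf tightly and acts largely as a trap for them. Vegfc signals through Flt4, the receptor known best from lymphatic vessels, and the neuropilins Nrp1 and Nrp2 bind both VEGFs and class 3 semaphorins. In the lung, alveolar aerocytes (aCap), the large thin capillary ECs that face the airspace, are known for high Kdr and for depending on epithelial Vegfa, and general capillary cells (gCap) are the capillary ECs with progenitor capacity.

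For all 9 genes, the 250 bases before the RefSeq start on GRCm38.p6 were searched on both strands for the hypoxia response cores ACGTG and GCGTG, the AP-1 site TGANTCA, the heat shock element GAANNTTC and the GC box GGGCGG. The windows of Vegfa (minus strand, chr17:46032378-46032627) and Kdr (minus strand, chr5:75978456-75978705) are printed because these were the genes past 1.5-fold over all ECs, and capitals mark motif matches on either strand.
Vegfa: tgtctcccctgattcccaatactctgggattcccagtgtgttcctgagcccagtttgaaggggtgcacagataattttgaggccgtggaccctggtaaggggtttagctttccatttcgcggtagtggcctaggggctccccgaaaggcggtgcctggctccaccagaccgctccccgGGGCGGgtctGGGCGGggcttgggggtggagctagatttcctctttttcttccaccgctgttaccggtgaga
Kdr: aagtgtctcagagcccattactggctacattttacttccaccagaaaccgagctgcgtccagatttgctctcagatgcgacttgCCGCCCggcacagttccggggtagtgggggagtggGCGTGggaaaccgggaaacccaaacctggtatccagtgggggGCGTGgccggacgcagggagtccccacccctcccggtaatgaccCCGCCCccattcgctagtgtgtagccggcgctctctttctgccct
The Vegfa window held 2 GC boxes and no other motif searched. The Kdr window held 2 GC boxes and 2 copies of GCGTG. Of 32851 mouse promoter windows of this length, 32.7% held a GC box, 28.2% GCGTG, 16.6% ACGTG, 6.75% the AP-1 site and 6.69% the heat shock element. All 9 windows held at least 1 GC box, 6 of them held GCGTG, and none held ACGTG, the AP-1 site or the heat shock element. A match describes letters in this window only.

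Total counts were 124085451 to 140601123 unique molecular identifiers (UMIs, each 1 captured RNA molecule) per library. ECs were barcodes of 1000 to 5000 genes and under 20% mitochondrial UMIs with at least 2 UMIs of Pecam1 and Cdh5 together, which kept 11231 control, 10583 6 h and 9278 30 h barcodes, 96.8 to 97.6% of those passing the other limits. Their median depth was 7782, 8033 and 8676 UMIs. Pairs of libraries shared 22 to 38 barcode sequences, at most 0.399% of either. Levels are CPM, the UMIs of a gene scaled to a common library total (counts per 1e6 UMIs), of a sum over barcodes, with exact Poisson 95% intervals, and ratios have exact 95% intervals. With 1 library per group no test between conditions was possible, and all intervals cover counting error only, not the spread between mice. Counts at the 3′ end differ in capture between genes, so levels are compared within a gene, and forms such as soluble Flt1 are not separated.

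Barcodes were sorted into 5 classes by marker genes that include none of the 9. The gCap-like class held 7459, 7179 and 5822 barcodes in the control, 6 h and 30 h libraries, the aCap-like class 1592, 1305 and 1510, the artery-like class 322, 255 and 411, the vein-like class 788, 581 and 551, and the lymphatic (LEC-like) class 77, 59 and 60. LEC-like sums carried 3225 to 3434 CPM of Mmrn1 and vein-like sums 1460 to 1558 CPM of Slc6a2, at most 5 CPM elsewhere for both. The gCap marker Gpihbp1 was not specific: it stood at 895 to 1172 CPM in artery-like and 690 to 1190 CPM in vein-like sums, against 1207 to 1485 CPM in gCap-like sums. Hmcn1, another gCap marker, was higher in vein-like sums (1108, 920 and 1092 CPM) than in gCap-like sums (985, 783 and 934 CPM). The LEC marker Lyve1 was likewise higher in vein-like sums (2424, 2077 and 1413 CPM) than in LEC-like sums (1784, 1689 and 1185 CPM), and the vein marker Prss23 reached 491 to 803 CPM in LEC-like sums. Artery-like sums held 64.0, 93.8 and 211 CPM of Gja5 and 11.8, 22.4 and 4.42 CPM of Dkk2. Bmx (244, 215 and 226 CPM) and Mecom (496, 452 and 512 CPM) differed less there. Whether the make-up of the artery-like class differed between libraries was not tested. Barcodes of no class or several (993, 1204 and 924) had a low depth where no class was reached, with medians of 2687 to 2934 UMIs.

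Over all ECs, Vegfa was the member that differed most at 6 h and Kdr the member that differed most at 30 h among the 8 that passed a mean of 5 CPM. Pgf did not pass. At 6 h, 1 of the 8 (Vegfa) was at least 1.5-fold higher than the control, where 2.06% of 10175 genes were, and none was lower by that fold, where 1.36% were. At 30 h, 1 of 8 (Kdr) was higher, where 4.85% of genes were, and none was lower, where 5.01% were. The median log2 ratio over the 8 was 0.05 at 6 h and 0.25 at 30 h, against -0.01 and -0.07 over all genes tested. Within gCap-like barcodes, Vegfa again passed at 6 h, where 2.24% of 10026 genes were higher and 1.37% lower, and Nrp2 just passed at 30 h, where 4.97% were higher and 5.12% lower. The log2 ratio of Nrp2 was 0.59, and it fell under the threshold of 0.58 at 0.47 with barcodes from 300 genes, 0.43 with doublets removed and 0.56 with class gates without the most abundant marker. With the red cell share of free RNA taken off it was 0.85 at 30 h and 0.87 at 6 h. None of the 8 members that passed a mean of 5 CPM in that class was lower by 1.5-fold either, and Pgf again did not pass.

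**Figure D1:**
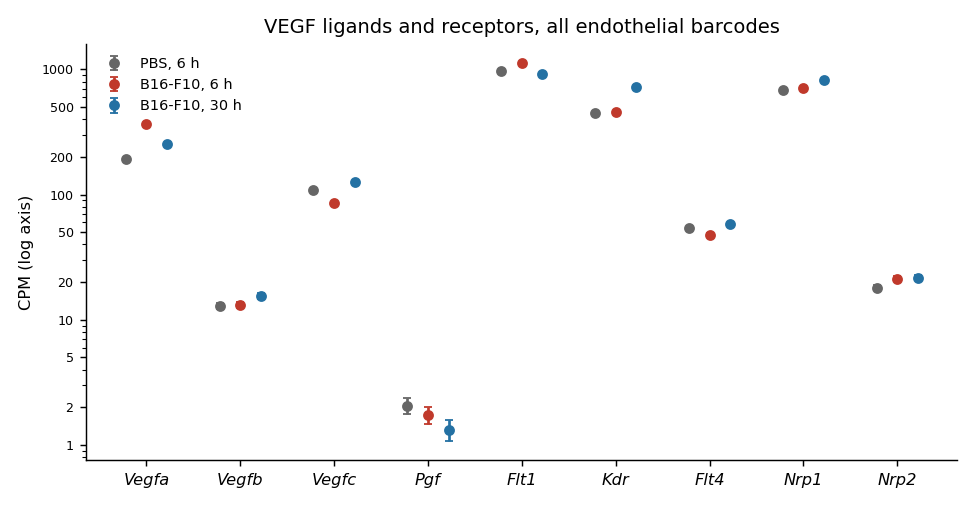
CPM of each gene over all endothelial barcodes (log axis), 1 point per library, with exact Poisson 95% intervals that are mostly smaller than the points. Vegfa is highest in the 6 h melanoma library (367 CPM) and Kdr in the 30 h library (724 CPM), and levels are to be read within a gene.

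Vegfa, the ligand that drives permeability and sprouting, was higher in both melanoma libraries. Its level over all ECs was 192 CPM in the control (17430 UMIs, 95% interval 189 to 195), 367 CPM at 6 h (363 to 371) and 252 CPM at 30 h (248 to 255). The 3 intervals did not overlap. The 6 h level was 1.91-fold the control (log2 0.94, 0.91 to 0.96) and the 30 h level 1.31-fold (log2 0.39, 0.36 to 0.42), so the 30 h library stood between the others.

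By class, Vegfa was highest in artery-like and gCap-like barcodes. In control, 6 h and 30 h order, artery-like levels were 382, 505 and 523 CPM, and gCap-like levels 242, 458 and 319 CPM. The ranges of these classes overlapped, although artery-like was above gCap-like in all 3 libraries. Vein-like barcodes followed with 87.9, 214 and 124 CPM, a range apart from that of gCap-like and of aCap-like. The lowest were aCap-like with 45.0, 76.2 and 59.5 CPM and LEC-like with 52.2, 69.8 and 35.4 CPM, which did not separate. The aCap-like barcodes held 5.36 to 6.00-fold less Vegfa than gCap-like barcodes of the same library, and 8.35 to 13.3-fold less with free RNA, estimated from red cell genes, taken off.

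The 6 h difference in Vegfa had the same direction in all 5 classes. The log2 ratio to the control was 1.28 (1.15 to 1.42) in vein-like, 0.92 (0.89 to 0.95) in gCap-like, 0.76 (0.62 to 0.90) in aCap-like and 0.40 (0.28 to 0.52) in artery-like barcodes. In LEC-like barcodes it was 0.42 with an interval of -0.31 to 1.14, on 35 and 34 UMIs. At 30 h the log2 ratios were 0.39 to 0.49 in the same 4 blood vascular classes, before any free RNA was taken off, and LEC-like barcodes were at -0.56 (-1.41 to 0.26). In artery-like barcodes the log2 ratio of Vegfa at 30 h to that at 6 h was 0.05 (-0.05 to 0.16), and Vegfa was lower at 30 h than at 6 h in the other classes, before any free RNA was taken off.

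**Figure D2:**
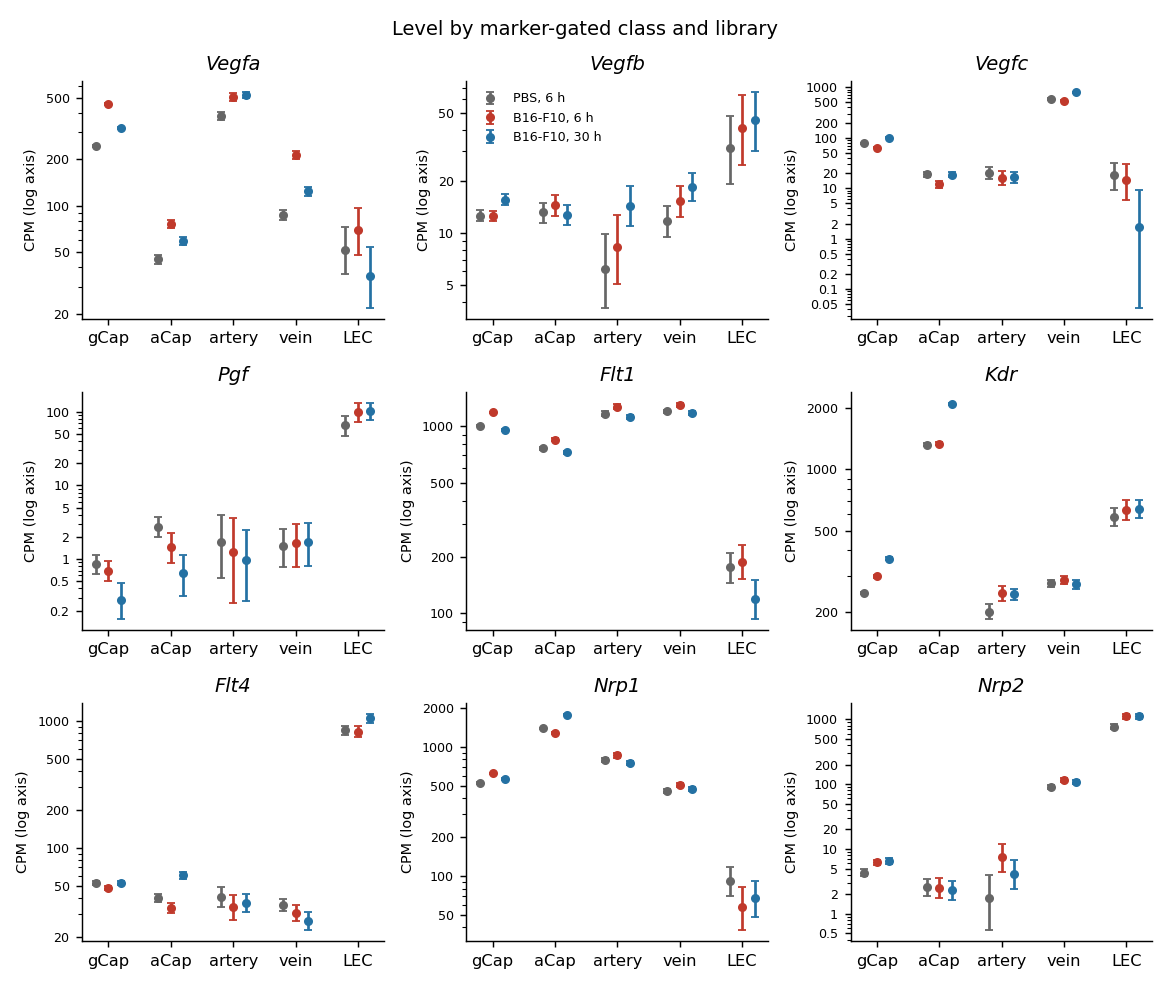
CPM (log axes) of each gene in the 5 marker-gated classes, 1 point per library, with exact Poisson 95% intervals. Vegfc is highest in vein-like, Kdr and Nrp1 in aCap-like, and Pgf, Flt4 and Nrp2 in LEC-like sums of all 3 libraries.

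The higher Vegfa at 6 h was spread over gCap-like barcodes. After each barcode was thinned to 2000 UMIs, 34.7% of control, 54.5% of 6 h and 42.9% of 30 h gCap-like barcodes had a Vegfa UMI, and 0.622%, 2.90% and 1.31% had 4 or more. Before thinning, 60.6%, 74.9% and 65.0% of all endothelial barcodes had one. The share was lowest in LEC-like barcodes at the same thinned depth, at 3.9%, 8.47% and 3.33%. That class held only 77, 59 and 60 barcodes before thinning, so this rank rests on few barcodes with a Vegfa UMI. Thinning left out 195, 197 and 111 endothelial barcodes under 2000 UMIs.

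**Figure D3:**
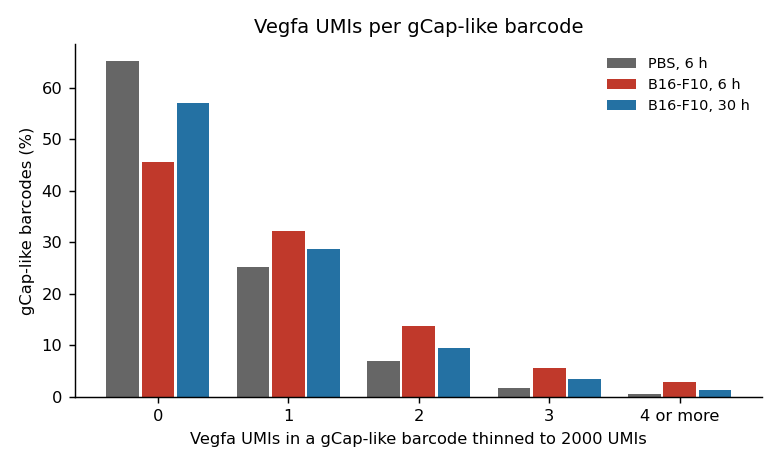
Percent of gCap-like barcodes (bars from 0) with 0, 1, 2, 3 or 4 or more Vegfa UMIs after thinning to 2000 UMIs, by library. The share with none was 65.3% in the control, 45.5% at 6 h and 57.1% at 30 h.

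Free RNA carried the same difference. In empty droplets (barcodes of at most 100 UMIs) Vegfa stood at 210, 407 and 275 CPM, a log2 ratio of 0.95 (0.82 to 1.09) at 6 h and 0.39 (0.26 to 0.52) at 30 h. Red cell genes reached 11.2 to 12.4% of their empty-droplet level in gCap-like and 9.26 to 13.5% in aCap-like sums. In artery-like sums they reached 3.10 to 5.80% and in LEC-like sums 1.51 to 3.68%. Whether ECs make any of these genes was not tested. In gCap-like sums the red cell share of the empty-droplet Vegfa comes to 25.5, 45.7 and 34.1 CPM, far under the levels measured. In aCap-like sums it comes to 28.4, 45.1 and 25.4 CPM of the 45.0, 76.2 and 59.5 CPM measured, and with it taken off the aCap-like log2 ratio at 30 h was 1.04 in place of 0.40, which is not below the 0.91 at 6 h. In vein-like sums the red cell share was 6.76% in the control, 6.34% at 6 h and 18.9% at 30 h. It comes to 14.2, 25.8 and 52 CPM of the 87.9, 214 and 124 CPM of Vegfa measured there, and with it taken off the vein-like log2 ratio at 30 h was -0.04 in place of 0.49. With 10% of free RNA subtracted the 6 h log2 ratio over gCap-like barcodes was 0.91. Airway epithelial genes stood at 329, 288 and 51.9 CPM in gCap-like sums and at 5377, 1280 and 2193 CPM in empty droplets. They would give other shares, so the share differed by class and by gene list. Levels with the red cell share taken off are estimates that depend on this list.

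Gene groups that were higher in the 6 h library are given beside Vegfa. Of 11 heat shock genes 10 were at least 1.5-fold higher at 6 h (median log2 ratio 0.92), against 2.06% of all genes, led by Hspa1b with 17.2, 111 and 10.4 CPM. Of 15 immediate early genes above 5 CPM, transcription factors and others that respond within minutes to stimulation or to digestion, 6 were higher at 6 h and none lower, against 2.06% and 1.36% of all genes. At 30 h 4 were lower and none higher, against 5.01% and 4.85%. Within bins of equal immediate early UMIs, the 6 h log2 ratio of Vegfa in gCap-like barcodes ran from 0.82 (0 to 9 UMIs) to 1.16 (80 or more UMIs, 43 control barcodes). Control levels were similar across bins at 226 to 261 CPM.

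The study describes reactive capillary cells, and 7 of their marker genes (Pim3, Bcl3, Tmem252, Inhbb, Osmr, Adamts9 and Scarb1) were used to bin gCap-like barcodes. In the control and at 30 h, Vegfa was level across bins, at 238 to 244 CPM and at 317 to 324 CPM. In the 6 h library it was 423 and 423 CPM with 0 or 1 marker gene detected, 482 CPM with 2 and 582 CPM with 3 or more. The log2 ratio to the control was 0.80 (0.75 to 0.85) with no marker detected and 1.28 (1.16 to 1.39) with 3 or more. Thus Vegfa was higher at 6 h also where none of the 7 genes was detected at 2000 UMIs per barcode, and more so where several were. Vegfa itself was taken from all UMIs of the barcode. A barcode with none of the 7 detected at this depth may still express them, so the values do not show Vegfa in marker-negative cells. The bin with 3 or more markers held 4.83% of control and 13.5% of 6 h gCap-like barcodes.

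**Figure D4:**
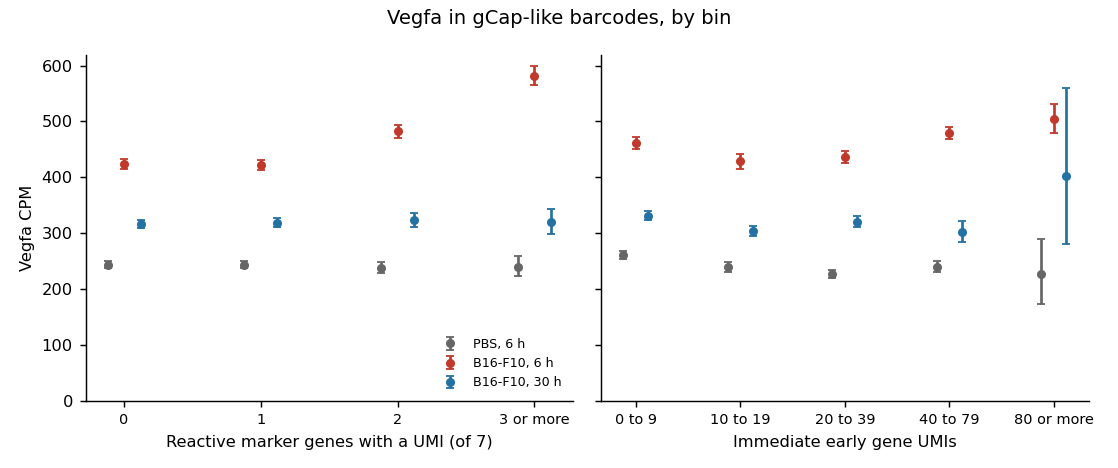
Vegfa CPM in gCap-like barcodes by the number of reactive marker genes with a UMI (left) and by summed UMIs of immediate early genes (right), both binned at 2000 UMIs per barcode, with exact Poisson 95% intervals. The 6 h points lie above the control points in all bins and reach 582 CPM where 3 or more markers were detected.

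Vegfb, a ligand of Flt1 linked to fatty acid handling, was low and nearly level over all ECs. In the same library order it stood at 12.9, 13.1 and 15.6 CPM, with log2 ratios of 0.03 (-0.09 to 0.15) and 0.28 (0.17 to 0.40). LEC-like barcodes had the highest level in each library, 31.3, 41.0 and 45.5 CPM on 20 to 27 UMIs. The other 4 classes overlapped in their ranges. Artery-like Vegfb was 6.22, 8.30 and 14.5 CPM on 18, 20 and 59 UMIs, and its 30 h log2 ratio was 1.22 (0.44 to 2.07).

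Vegfc, the main ligand of Flt4, was a venous gene in these libraries. Vein-like levels were 583, 547 and 789 CPM, which was 7.51, 8.61 and 7.93-fold the gCap-like level of the same library. The gCap-like levels were 77.6, 63.5 and 99.5 CPM, and artery-like, aCap-like and LEC-like levels stayed at or below 20.1 CPM. Vegfc thus separated venous from all other classes beyond the spread over libraries. It is the one ligand that was lower at 6 h in every class, with intervals that left out 0 in gCap-like (log2 -0.29, -0.35 to -0.23), aCap-like (-0.67, -0.95 to -0.40) and vein-like barcodes (-0.09, -0.16 to -0.03). At 30 h it was above the control in gCap-like (0.36, 0.30 to 0.42) and vein-like barcodes (0.44, 0.38 to 0.50). In aCap-like barcodes the 30 h log2 ratio was -0.04 (-0.27 to 0.19). Over all ECs the levels were 108, 85.5 and 126 CPM, the reverse order of Vegfa between control and 6 h.

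Pgf, a ligand of Flt1, had its highest level in lymphatic barcodes. LEC-like levels were 65.6, 98.5 and 103 CPM (44, 48 and 61 UMIs), and the other 4 classes lay between 0.281 and 2.76 CPM. Empty droplets held 7.32, 4.05 and 4.44 CPM, and 2 of the 3 gCap-like levels were at or below what free RNA would give by the red cell share. These 2 were the only such cases among 135 levels of the 9 genes by class and library.

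Flt1, the trap receptor, was highest in the vein-like, artery-like and gCap-like classes. Over all ECs it stood at 965 CPM in the control (959 to 972), 1121 CPM at 6 h (1114 to 1128) and 911 CPM at 30 h (905 to 918). The log2 ratios were 0.22 (0.20 to 0.23) and -0.08 (-0.10 to -0.07). Vein-like and artery-like sums held 1118 to 1301 CPM, gCap-like sums 956 to 1187 CPM and aCap-like sums 726 to 845 CPM. The vein-like, artery-like and gCap-like ranges overlapped, aCap-like barcodes were apart below them, and LEC-like barcodes were lowest with 176, 189 and 120 CPM.

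Kdr, the main signalling receptor for Vegfa, was an aerocyte gene, and its level there was higher at 30 h. The aCap-like levels were 1322 CPM in the control (1305 to 1340), 1338 CPM at 6 h (1319 to 1357) and 2097 CPM at 30 h (2075 to 2119). Control and 6 h overlapped, and the 30 h level was 1.59-fold the control (log2 0.67, 0.64 to 0.69). In gCap-like barcodes Kdr was graded over the libraries, at 247, 298 and 364 CPM, with log2 ratios of 0.27 (0.24 to 0.31) at 6 h and 0.56 (0.53 to 0.59) at 30 h. Thus gCap-like barcodes stood above the control at both times and aCap-like barcodes at 30 h.

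The other classes differed less in Kdr at 30 h. LEC-like sums were the second highest, with 583, 630 and 639 CPM and intervals of both ratios that included 0. Vein-like sums held 275, 287 and 273 CPM, again with both intervals including 0. The red cell share of the empty-droplet Kdr comes to 25.5, 25.4 and 103 CPM of these vein-like levels, and with it taken off the vein-like log2 ratio at 30 h was -0.56. Artery-like sums held 200, 246 and 244 CPM, a log2 ratio of 0.30 (0.13 to 0.47) at 6 h and 0.29 (0.14 to 0.44) at 30 h. Over all ECs Kdr stood at 450, 461 and 724 CPM, and the 30 h log2 ratio was 0.69 (0.67 to 0.70). The aCap-like share of endothelial barcodes was 14.2%, 12.3% and 16.3%, and with the class mix held at that of the control the ratio was 0.59. Empty droplets held 378, 401 and 546 CPM of Kdr.

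The number of Flt1 UMIs per Kdr UMI, compared between libraries within a class, was lowest at 30 h in all 5 classes as measured. With the red cell share of free RNA taken off, it was lowest at 30 h in 4 of the 5, all but vein-like. In gCap-like barcodes there were 4.07 Flt1 UMIs per Kdr UMI in the control, 3.98 at 6 h (3.92 to 4.05) and 2.63 at 30 h (2.58 to 2.67). In aCap-like barcodes the values were 0.577, 0.632 and 0.346. Artery-like barcodes had 5.84, 5.18 and 4.58, and LEC-like barcodes 0.302, 0.300 and 0.187. Vein-like barcodes had 4.36, 4.54 and 4.29 with overlapping intervals, and with the red cell share of free RNA taken off they had 4.66, 4.83 and 6.37, highest at 30 h. The 6 h and 30 h intervals also overlapped in artery-like and LEC-like barcodes. Capture differs between these genes, so the value itself is not a ratio of molecules.

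**Figure D5:**
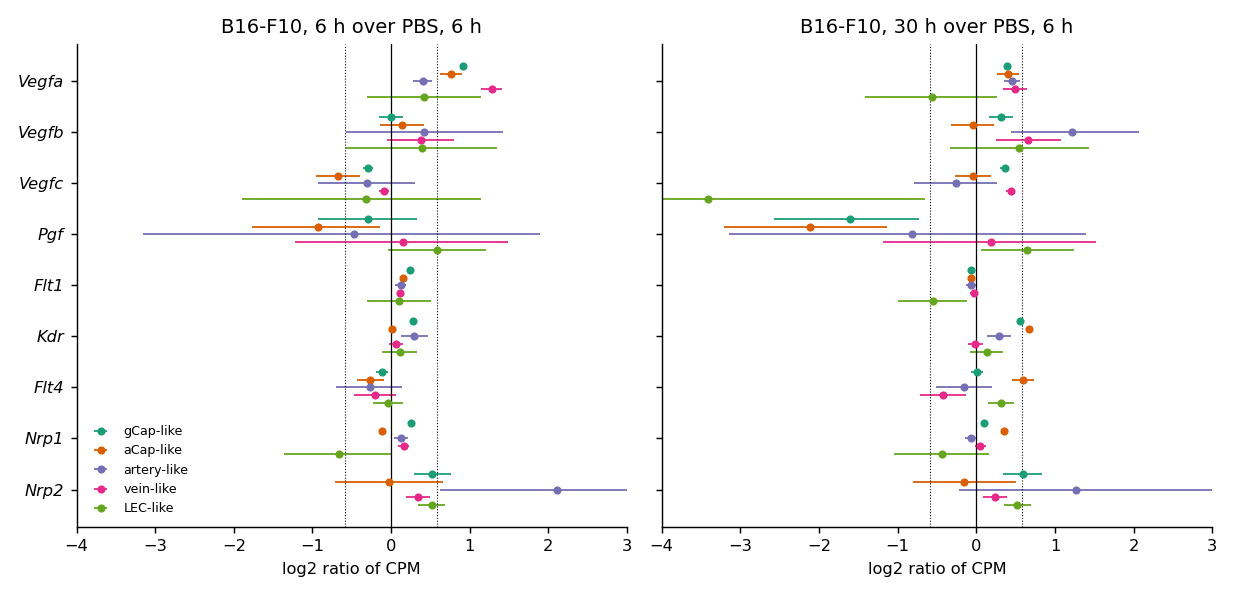
Log2 ratio of CPM to the control library for the 6 h (left) and 30 h (right) melanoma libraries, 1 point per gene and class, with exact 95% intervals, some of which run past the axis. Dotted lines mark 1.5-fold. Vegfa lies to the right of 0 at 6 h in all 5 classes, and Kdr at 30 h is farthest right in aCap-like (0.67) and gCap-like (0.56) sums.

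Flt4, the receptor for Vegfc, marked lymphatic barcodes. LEC-like levels were 841, 819 and 1044 CPM, up to 19.6-fold the gCap-like level of the same library under the marker gate used here, and the 30 h log2 ratio was 0.31 (0.14 to 0.48). The 4 blood vascular classes lay between 26.5 and 60.7 CPM, and their neighbouring ranges overlapped. Within them, aCap-like barcodes held 40.2, 33.5 and 60.7 CPM, which was lower at 6 h (log2 -0.27, -0.44 to -0.09) and higher at 30 h (0.59, 0.45 to 0.73). Vein-like Flt4 was lower at 30 h (35.5, 30.8 and 26.5 CPM, log2 -0.42, -0.71 to -0.14). The red cell share of the empty-droplet Flt4 comes to 3.23, 2.53 and 8.99 CPM of these vein-like levels. With it taken off, the vein-like log2 ratio at 30 h was -0.88. At 30 h Flt4 and Kdr were thus both higher in aCap-like barcodes.

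Nrp1, the co-receptor of Kdr for Vegfa, was ordered by class with no overlap between any neighbours. Levels were 1281 to 1775 CPM in aCap-like, 755 to 863 CPM in artery-like, 526 to 626 CPM in gCap-like, 457 to 512 CPM in vein-like and 57.5 to 91.0 CPM in LEC-like sums. This order held in all 3 libraries. Between libraries, gCap-like and aCap-like barcodes differed in opposite directions at 6 h. In gCap-like barcodes it was 526, 626 and 563 CPM, highest at 6 h (log2 0.25, 0.23 to 0.27). In aCap-like barcodes it was 1389, 1281 and 1775 CPM, lowest at 6 h (-0.12, -0.15 to -0.09) and highest at 30 h (0.35, 0.33 to 0.38). Over all ECs, where these were pooled, the 6 h log2 ratio was 0.06 (0.04 to 0.08).

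Nrp2, a co-receptor for Vegfc and for semaphorins, was lymphatic and venous. LEC-like levels were 771, 1102 and 1106 CPM on 517 to 656 UMIs, with log2 ratios of 0.51 (0.34 to 0.69) at 6 h and 0.52 (0.35 to 0.69) at 30 h. Vein-like levels were 91.2, 116 and 107 CPM, 16.6 to 21.2-fold the gCap-like level of the same library. The gCap-like levels were 4.31, 6.20 and 6.47 CPM, and it is on these low counts (252, 366 and 322 UMIs) that Nrp2 passed 1.5-fold at 30 h. They lie under the empty-droplet level, which was at least 17.2 CPM. Its position overlaps the antisense gene Gm29083, which stood at 0 to 0.055 CPM.

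The order of classes therefore placed the family on different vessels. Vegfa was highest in artery-like and gCap-like, Vegfc in vein-like, and Kdr and Nrp1 in aCap-like barcodes. Pgf, Vegfb, Flt4 and Nrp2 were highest in LEC-like barcodes, of which there were at most 77 per library. These first places held in all 3 libraries, and for every gene except Vegfa and Flt1 the first class was apart from the second. The size of the LEC-like differences rested on the marker gate. With a gate of 2 markers and 3 UMIs, the control log2 ratio of LEC-like to gCap-like sums was 0.32 for Vegfb in place of 1.31, 4.01 for Pgf in place of 6.26, 1.77 for Flt4 in place of 4 and 5.11 for Nrp2 in place of 7.48.

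Genes with the most similar profile over the 15 sums of class and library were named by Pearson's r of log2(CPM + 1) among 10140 genes. These were Ctsc (0.955) and Sox17 (0.949) for Vegfa, Ogfrl1 (0.978) for Vegfc, Smad7 (0.985) for Flt1, Enho (0.968) and Myo5a (0.966) for Kdr, and Pecam1 (0.988) for Nrp1. For the genes highest in LEC-like sums they were Trf (0.987) for Flt4, Ralgps2 (0.990) for Nrp2, Asap1 (0.987) for Pgf and Fscn1 (0.95) for Vegfb. The 15 sums share libraries and class depths, and 3 of them are LEC-like, so these values are descriptions.

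Other genes of the pathway are given over all ECs, from lists chosen with earlier results of these data known. Of 8 other ligands and processing genes, 4 averaged 5 CPM or more. Vegfd, a ligand of Flt4 that is not among the 9, was the only 1 of these 4 past 1.5-fold, and was lower at 30 h. It stood at 11.9, 10.5 and 5.52 CPM (log2 -1.11, -1.27 to -0.95, at 30 h), and the 30 h level was lowest in each blood vascular class. Under 5 CPM, Ccbe1 was lower at 6 h, with 3.10, 1.44 and 2.14 CPM (log2 -1.11, -1.42 to -0.80). Of 9 oxygen-sensing genes that regulate Vegfa, 7 averaged 5 CPM or more, and none of the 7 passed 1.5-fold at either time. Of all genes, 2.06% were higher and 1.36% lower at 6 h, and 4.85% and 5.01% at 30 h. Hif3a, under the 5 CPM limit, was lower at both times, with 1.02, 0.218 and 0.528 CPM (log2 -2.23 and -0.96). Hif1a, the oxygen-regulated transcription factor subunit, stood at 70.5, 83.2 and 60.7 CPM (log2 0.24 and -0.22).

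Among 19 receptor partners and phosphatases, Plxnd1, a semaphorin receptor, was higher at both times, with 23.9, 39.4 and 72.1 CPM (log2 0.72 and 1.59). This count and those of the next 2 lists are again of genes that averaged 5 CPM or more. Sdc2, a heparan sulfate proteoglycan, was lower at 6 h, with 7.46, 4.92 and 6.41 CPM. Ptprb, the phosphatase that restrains Kdr, was near level at 2379, 2097 and 2038 CPM. Of 5 neuropilin-binding semaphorins, Sema3b was higher at 30 h, with 5.10, 4.33 and 7.65 CPM. Of 24 genes of receptor signalling, Hspb1 was higher at 6 h, with 227, 382 and 304 CPM, and it is also one of the 11 heat shock genes. With these shares of all genes past 1.5-fold, counts of 1 or none in a list are no result about the list. The median log2 ratios of these lists lay between -0.36 and 0.30.

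Of 24 genes known to be raised by VEGF in ECs, 19 averaged 5 CPM or more. Of these, 6 were at least 1.5-fold higher at 6 h and none was lower by that fold, against 2.06% and 1.36% of all genes. The median log2 ratio was 0.47. Angpt2 was just short of 1.5-fold lower, with 20.1, 13.5 and 13.7 CPM (log2 -0.578, -0.68 to -0.47, at 6 h). Esm1 (0.21) and Dll4 (0.12) were near level at 6 h. Among the 19, the 2 with the highest ratios at 6 h were Dusp5, a phosphatase that restrains ERK (4.82, 11.6 and 2.64 CPM), and Tnfaip3, an inhibitor of NF-kB (11.1, 21.6 and 11.7 CPM). Sele and Kcne3, which averaged under 5 CPM, had higher ratios (log2 3.72 and 3.02). At 30 h, 3 were higher and 3 lower (median 0.15), against 4.85% and 5.01% of all genes. Apln, the tip-cell ligand apelin, stood at 26.8, 33.0 and 76.5 CPM, and Spry4, a feedback inhibitor of receptor signalling, at 25.4, 48.4 and 44.0 CPM. Egr3 had the lowest 30 h ratio among the 19, with 13.9, 24.8 and 7.31 CPM (log2 -0.93). Icam1, a leukocyte adhesion molecule, stood at 260, 360 and 141 CPM. Many genes of this list also respond to inflammation, Adamts9 is also a reactive marker, and 6 immediate early and 10 heat shock genes were higher in the same library, whose part in these values was not tested.

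Markers of other cells were also measured in the ECs. Red cell genes summed to 2944, 1924 and 762 CPM, alveolar epithelial genes to 1109, 894 and 771 CPM and platelet genes to 142, 173 and 143 CPM, with all genes of these lists detected. Immune genes summed to 19.9, 31.2 and 35.0 CPM, fibroblast genes to 35.3, 27.3 and 36.4 CPM, and pericyte and smooth muscle genes to 67.3, 60.3 and 66.5 CPM. Airway epithelial genes summed to 321, 245 and 205 CPM in the ECs and to 5377, 1280 and 2193 CPM in empty droplets. They were carried by 31.5%, 3.86% and 2.43% of EC barcodes, which differed far more between libraries than the EC sums did. How much of this airway RNA in the ECs was free RNA was not tested. The 8 melanoma markers summed to 23.5, 40.5 and 20.7 CPM in the ECs and to 18.3, 233 and 19.4 CPM in empty droplets, and 1.58%, 3.04% and 1.67% of EC barcodes carried them. With barcodes carrying platelet, immune, mesenchymal or melanoma RNA removed, the Vegfa log2 ratio at 6 h was 0.94 and the Kdr ratio at 30 h was 0.70, as large as with them. With barcodes carrying red cell or epithelial RNA removed as well, which left 71 control barcodes, the Vegfa ratio was 1.20 and the Kdr ratio 0.52, under 1.5-fold.

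By the GENCODE annotation of GRCm38, Vegfa lies at chr17:46016993-46032369 (minus strand), Vegfb at chr19:6982473-6987651 (minus), Vegfc at chr8:54077606-54187096 (plus) and Pgf at chr12:85166635-85177790 (minus). Flt1 lies at chr5:147561604-147726011 (minus), Kdr at chr5:75932827-75978458 (minus), Flt4 at chr11:49609263-49652739 (plus), Nrp1 at chr8:128358604-128503363 (plus) and Nrp2 at chr1:62703285-62818695 (plus). These are whole gene spans, and the counts do not say which exon a UMI came from.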

How the data were processed

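Lung ECs of 3 groups were measured with 1 droplet library each. The authors deposited raw UMI counts per gene and barcode for all barcodes, made per the labels with Cell Ranger 7.2.0 on mm10. The study's methods name another Cell Ranger version, and whether introns were counted is not given in the sources used here. Seurat 4.4.0 is named by the submitters' processing notes for later steps that are not in these files.

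From the deposited counts, EC barcodes were kept by the limits in the report, with no doublet removal, and summed per library and class. A class needed at least 3 of its marker genes and 5 of their UMIs in a barcode. A barcode that passed only the aCap, artery, vein or LEC gate took that class, also where it passed the gCap gate. Barcodes that passed several of these gates were given no class, and gCap-like barcodes passed the gCap gate alone. Marker counts were not compared between classes. The limits of 3 markers and 5 UMIs were set after marker levels had been seen, because 2 markers and 3 UMIs, kept as an alternative, left capillary RNA in LEC-like sums. CPM are relative to all UMIs of the sum. Intervals were exact Poisson for levels, exact conditional binomial for ratios and exact Clopper-Pearson for shares, at 95%, and were tested on simulated counts. A gene counted as past the threshold at 1.5-fold if its CPM averaged 5 or more across libraries. Medians over the members and over all genes used log2(CPM + 1), and those of the other gene lists used log2 ratios of CPM. The 3 most similar genes per member were computed, and 1 or 2 are named.

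The members and gene lists, and the reactive markers, were chosen with earlier results of these data known. Total UMIs per library of 124085451 to 140601123 make counting error small for all but low counts, such as those of Pgf, of LEC-like barcodes, and of Nrp2 and Vegfb in artery-like barcodes. Alternatives were other gates, doublet removal by Scrublet scores, removal of barcodes with other cells' RNA, other scalings, means over cells, subtraction of free RNA and a fixed class mix. For gCap-like Vegfa at 6 h, ratios within bins of barcodes were counted with them. Analyses used Python 3.11.15, numpy 2.4.6, pandas 2.3.3, scipy 1.17.1 and scanpy 1.11.5. Of 32285 genes, 32158 matched GENCODE M21 by identifier.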

Additional observations from a re-analysis of the deposited data

Results flagged for a closer look

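These results are given because a gene stood above the control in some classes and below it in others within the same comparison, with intervals of counting error that left out 0 on both sides. The differences between classes were not tested, since each group is 1 library. For Nrp1 at 6 h, the log2 ratio to the control was 0.25 in gCap-like, 0.13 in artery-like and 0.16 in vein-like barcodes, and -0.12 in aCap-like barcodes. For Flt4 at 30 h it was 0.59 in aCap-like and 0.31 in LEC-like barcodes, and -0.42 in vein-like barcodes. With the red cell share of free RNA taken off, these Flt4 ratios were 0.74, 0.31 and -0.88. For Vegfc at 30 h the measured log2 ratio was 0.36 in gCap-like and 0.44 in vein-like barcodes. In LEC-like barcodes it was -3.41, which rests on 12 UMIs in the control and 1 UMI at 30 h. For Pgf at 30 h it was 0.65 in LEC-like barcodes, and -1.60 in gCap-like and -2.11 in aCap-like barcodes, on 50 against 14 UMIs and 46 against 11 UMIs at levels below those of empty droplets.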

How the results depend on the processing

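No paired analysis was possible because each group is 1 library, and for the same reason no replicate could be left out. Among 32 log2 ratios of the members to the control, 260 of 343 alternative values stayed within the counting interval of the main value and 83 moved outside it. The ratio of gCap-like Vegfa at 6 h had 20 alternatives, where the others had 10 or 11. Its values include ratios within bins of reactive marker genes and of immediate early UMIs, which are subsets of barcodes. The sign changed in 8 of the 343 values, all of Vegfb or Flt4 at 6 h and none of a ratio past 1.5-fold. Without barcodes carrying RNA of another cell type, the 6 h log2 ratio of Flt4 was 1.24 over all ECs (main value -0.17) and 0.67 in gCap-like barcodes (-0.12), and that of Vegfb over all ECs was -0.37 (0.03). The other 5 were values of 0.00 to 0.03 for gCap-like Vegfb. The 6 h log2 ratio of Vegfa over all ECs was 1.20 without barcodes carrying RNA of another cell type, 0.89 as a mean over cells and 0.89 at the control's class mix. The 30 h log2 ratio of Kdr was 0.66 with barcodes from 300 genes, 0.52 without barcodes carrying RNA of another cell type, 0.76 with median-of-ratios scaling, 0.73 without mitochondrial and ribosomal genes and 0.59 at the control's class mix. The removal of all barcodes with other cells' RNA kept 71, 375 and 2034 barcodes in the control, 6 h and 30 h libraries, since red cell and epithelial RNA was in most barcodes, and under it 3 members passed 1.5-fold at 6 h and 3 at 30 h in place of 1 and 1. These were Vegfa, Flt4 and Nrp2 at both times, so Kdr no longer passed at 30 h. The subtraction of free RNA by the red cell share was added after the data had been seen. With a threshold of 0.32 on the log2 scale in place of 1.5-fold, 2 members passed at 6 h and 2 at 30 h. Median-of-ratios scaling moved the median of all genes by 0.07 in the log2 ratio at 30 h. The 30 h difference in the share of endothelial barcodes with a Vegfc UMI, 0.99 percentage points at 2000 UMIs per barcode, was -0.20 points before thinning. That of Flt4 at 30 h was -0.00 points at 2000 UMIs, 0.42 at 1000 UMIs and 3.27 before thinning, and that of Vegfb at 6 h was 0.09, -0.05 and 0.39 points. Low counts limit Pgf, most members in LEC-like barcodes (59 to 77 per library), and Nrp2 and Vegfb in artery-like barcodes. The spread between mice is unknown in all comparisons.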

Other observations

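In the 6 h library, 31 barcodes with fewer than 5 UMIs of Pecam1 and Cdh5 together carried several markers of melanoma cells (227141 UMIs in all). The endothelial gate takes at least 2 such UMIs, so the 2 sets of barcodes may overlap. They held 20 Nrp2 UMIs (88.1 CPM), 19 Vegfb UMIs (83.6 CPM), 7 Flt1 UMIs (30.8 CPM) and 1 Vegfa UMI (4.40 CPM). No Kdr or Flt4 UMI was found in them, and 3 UMIs of that sum would be 13.2 CPM. Vegfb in these barcodes was above the level of the ECs of that library (13.1 CPM), and Vegfa was below the ECs' 367 CPM.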
